A study of Mus musculus with 2 samples.

Results

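The promoters described here belong to 10 protein-coding genes outside the Hox clusters: Efemp1, Creld1, Cyba, Slc27a3, Nav1, Cdo1, Btbd6, Tppp3, Ankrd13d and Fam196a. They were chosen by their measured CpG methylation near the start, which was higher in Dnmt1-/- than in Dnmt1+/+ cells, so that rise is the basis of the choice and is described below. A test per CpG serves only to mark CpGs that differed beyond counting error, and it is no support for the direction, which the choice fixed. They are 10 of 22350 protein-coding gene models in the annotation, and 10 of the 12805 models outside the Hox clusters that had at least 5 informative CpGs within 1 kb of their start.

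Methylation was read by reduced-representation bisulfite sequencing (RRBS) in mouse embryonic fibroblasts (MEFs), with 1 Dnmt1+/+ library and 1 Dnmt1-/- library. The cells labelled Dnmt1-/- carry a homozygous hypomorphic allele of Dnmt1, and MEFs of both genotypes also lack trp53. With no replicate, every difference is between 2 libraries rather than between genotypes, and its error covers counting only. Fibroblast identity was not checked, since no expression values were used here.

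DNMT1 restores CpG methylation on the newly made strand after DNA replication, so cells with little of it lose methylation over cell divisions. DNMT3A and DNMT3B can place methylation on unmethylated CpGs. CpG-rich promoters are usually unmethylated in somatic cells, while most other CpGs, including those in gene bodies, are methylated.

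The table covered 1790826 CpGs, each read at least 10 times in both libraries, with a median depth of 29 calls in Dnmt1+/+ and 30 in Dnmt1-/-. CpGs inside CCGG or TCGA, the sites cut by MspI and TaqI, were set aside because they read high even where their neighbours are not methylated. The 68 such CpGs near the 10 starts averaged 49.8 to 61.4% per gene even in Dnmt1+/+. The remaining CpGs are called informative, and over the whole table they averaged 45.0% in Dnmt1+/+ and 15.1% in Dnmt1-/-. The median promoter differed by -1.34 percentage points, Dnmt1-/- minus Dnmt1+/+.

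Within 1 kb of the 10 starts, 267 informative CpGs were measured with 15073 calls in Dnmt1+/+ and 16820 in Dnmt1-/-. The promoter means in Dnmt1+/+ ranged from 0.978 to 16.5%, with a median of 7.86%. In Dnmt1-/- they ranged from 30.9 to 62.2%, with a median of 45.0%, so the promoters gained partial and not complete methylation. The lowest Dnmt1-/- mean was above the highest Dnmt1+/+ mean. Of the 267 CpGs, 258 had a higher value in Dnmt1-/-, 102 were above 50% there and 7 reached 80% or more. In Dnmt1+/+ 67 of them had no methylated call, and in Dnmt1-/- 7 had none.

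**Figure D1:**
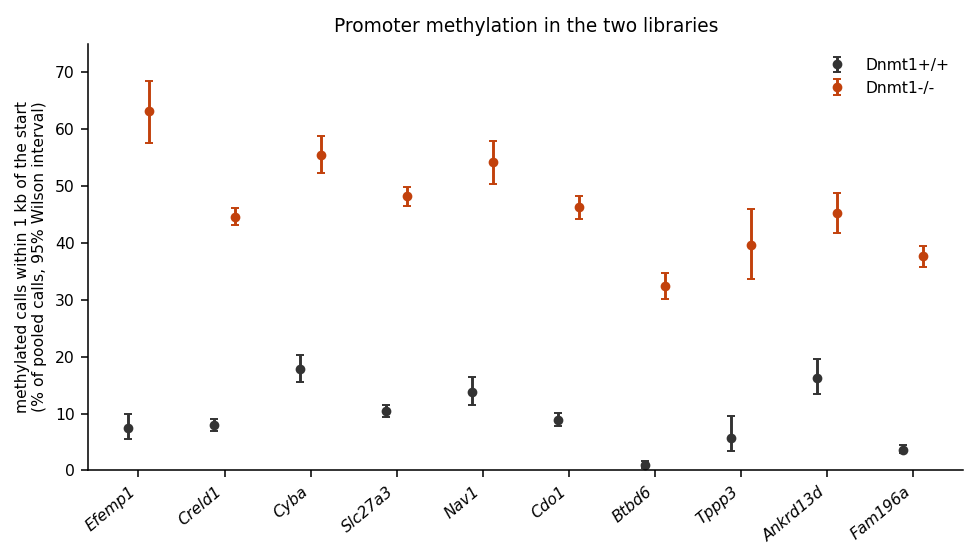
Percent of pooled calls that were methylated within 1 kb of each gene's start in the Dnmt1+/+ and Dnmt1-/- libraries, with 95% Wilson intervals as bars. The genes were chosen for this difference, and the intervals are too narrow because CpGs on the same reads are counted as independent, as at Fam196a (2.98 to 4.41% and 35.8 to 39.5%) and Efemp1 (5.46 to 9.96% and 57.5 to 68.5%).

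All 10 promoters differed by 25 points or more, and the differences ran from 27.6 points at Fam196a to 54.8 points at Efemp1. With the CpGs in CCGG or TCGA included, 3 fell below 25 points: Tppp3 to 20.5, Ankrd13d to 22.8 and Fam196a to 23.6 points. With pooled calls Fam196a stood at 34.0 points and was not the smallest. Over the non-Hox promoters as a whole, 0.117% were higher by 25 points or more and 0.586% by 10 points or more. The genes were taken from these top ranks, and 10 of the 15 promoters at 25 points or more are the ones listed. Ordered by difference, the last of the listed genes was Fam196a with 27.6 points and the next promoter was Hsf4 with 27.3 points. Hsf4 was chosen for mention after its value was seen. No single limit separates the listed genes from the rest. The 3 promoters with the largest rise that were not listed were Gm4793 (37.3 points), Mcts1 (35.9 points, from 3.32 to 39.2%) and 0610012H03Rik (33.4 points, from 19.4 to 52.8%). Gm4793 starts 582 bp from Nav1 on the opposite strand and its window held the same 16 CpGs.

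**Figure D2:**
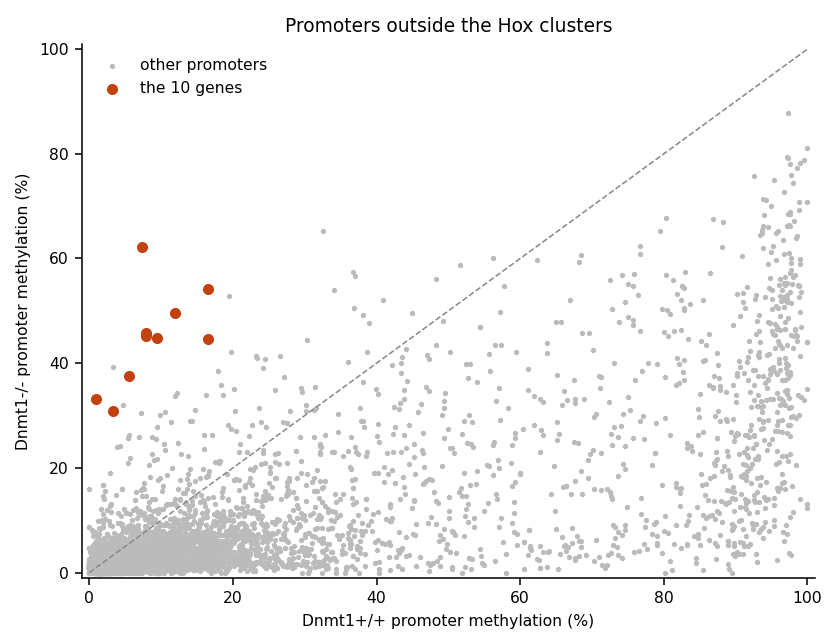
Mean methylation of informative CpGs within 1 kb of the start, Dnmt1+/+ on the x axis and Dnmt1-/- on the y axis in percent, for the 12805 non-Hox promoters. Each grey point is 1 promoter, the dashed line marks equal values, and the 10 genes lie between 0.978 and 16.5% on the x axis and between 30.9 and 62.2% on the y axis.

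Each CpG's calls were compared by Fisher's exact test (two-sided, Benjamini-Hochberg over the table), and 232 of the 335 CpGs near the 10 starts were higher in Dnmt1-/- and 1 was lower. With each CpG thinned to 50% of its calls, a check added after seeing the data, 150 were called higher. Of all CpGs measured, 0.462% were called higher and 43.7% lower. Of the 232, 218 were informative. Since the genes were chosen for this rise, nothing is read from the direction of these calls. Since CpGs of 1 restriction fragment share reads, neighbouring calls are not independent of each other.

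Some of the stretches that rose are printed here as reference sequence, to show how densely the CpGs that gained methylation are packed. CpGs inside CCGG or TCGA lie between them, except in the Efemp1 and Nav1 start stretches, which hold none. Each is from build mm9 (NCBIM37), 5′ to 3′ on the strand of the gene, and capitals mark the CG of every informative CpG that was called higher in Dnmt1-/-. The Efemp1 stretch lies in an intron on the plus strand (chr11:28753334-28753375). The Creld1 stretch lies upstream of the start on the plus strand (chr6:113432767-113432918), within coding sequence near the end of the neighbouring gene Il17rc. The Cyba stretch is intronic on the minus strand (chr8:124956534-124956640), and the Slc27a3 stretch is coding on the minus strand (chr3:90193412-90193568). Nav1 is shown on the minus strand just upstream of its start (chr1:137481994-137482084) and in an intron far downstream (chr1:137407130-137407287).
Efemp1: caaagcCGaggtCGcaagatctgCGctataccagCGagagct
Creld1: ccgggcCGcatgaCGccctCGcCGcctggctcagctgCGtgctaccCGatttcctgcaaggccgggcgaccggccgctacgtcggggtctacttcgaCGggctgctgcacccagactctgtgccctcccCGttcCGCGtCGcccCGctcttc
Cyba: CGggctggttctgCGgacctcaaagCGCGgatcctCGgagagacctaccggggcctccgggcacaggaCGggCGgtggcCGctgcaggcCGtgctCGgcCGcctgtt
Slc27a3: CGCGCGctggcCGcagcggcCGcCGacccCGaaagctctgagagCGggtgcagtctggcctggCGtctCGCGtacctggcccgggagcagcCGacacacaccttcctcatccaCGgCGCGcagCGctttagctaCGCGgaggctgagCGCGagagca
Nav1 start: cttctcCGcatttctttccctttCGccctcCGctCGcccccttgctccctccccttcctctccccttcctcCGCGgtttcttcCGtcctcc
Nav1 intron: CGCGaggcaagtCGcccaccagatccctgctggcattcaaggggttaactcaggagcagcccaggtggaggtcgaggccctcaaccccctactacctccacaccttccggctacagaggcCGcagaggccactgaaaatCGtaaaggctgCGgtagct

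In the Slc27a3 stretch 20 of 21 informative CpGs were called higher, and their mean went from 9.35 to 55.1%. In the Cyba stretch all 11 were called higher, from 17.4 to 59.2%, and in the Creld1 stretch all 12, from 13.6 to 48.7%. The 7 CpGs of the stretch at the Nav1 start went from 2.02 to 55.8%, the 6 of its intron from 13.6 to 55.5%, and the 4 of Efemp1 from 9.49 to 75.7%. Intervening CpGs in lower case were in CCGG or TCGA, were not called, or were not measured.

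Efemp1 encodes fibulin-3, a glycoprotein of the extracellular matrix, and its start is at chr11:28753204 on the plus strand. Its 7 informative CpGs averaged 7.37% in Dnmt1+/+ and 62.2% in Dnmt1-/-, the widest difference among the non-Hox promoters. All 7 lay in 60 bp, from +105 to +164 relative to the start, and all 7 were called higher. The CpG at +153 went from 10.6 to 91.9% at depths of 66 and 37 calls, while that at +107 went from 6.06 to 37.8%. The only other CpGs measured within 1 kb were at sites set aside: that at +90 went from 27.3 to 51.4% and was called higher, and that at +176 was at 80.3 and 83.8%. Beyond these the reach of the rise was not measured. The next informative CpG, at +18649 in the gene body, went from 91.7 to 20%.

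Creld1 encodes a membrane protein with EGF-like domains, and it starts at chr6:113433291 on the plus strand. Its 41 CpGs averaged 7.86% in Dnmt1+/+ and 45.7% in Dnmt1-/-, and 37 were called higher. The sides of the start differed in their Dnmt1+/+ level. Upstream, 27 CpGs went from 11.6 to 42.7%, and downstream 14 CpGs went from 0.585 to 51.6%, all 14 of them called higher. The downstream CpGs from +252 to +366 had only 13 calls in Dnmt1+/+ and 16 to 18 in Dnmt1-/-. With a depth of at least 20, the promoter difference was 33.2 points in place of 37.9. The CpG at +260 went from 0 to 87.5%, at 13 and 16 calls, and the CpG at -267 stayed level at 53.6 and 52.9%.

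Cyba encodes the p22phox subunit of the NADPH oxidases and starts at chr8:124956840 on the minus strand. Its 21 CpGs averaged 16.5% in Dnmt1+/+ and 54.2% in Dnmt1-/-, with 19 called higher. The Dnmt1+/+ level was, with that of Ankrd13d, the highest of the 10. All but 1 of the CpGs lay downstream of the start, and the 2 nearest to it gained least: the CpG at -2 was at 6.67% in both libraries, and that at +3 went from 0 to 13.3%, each at 15 calls.

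Slc27a3 encodes a fatty acid transport protein with acyl-CoA synthetase activity and starts at chr3:90193860 on the minus strand. Its 46 CpGs, the most of any of the 10, averaged 11.9% in Dnmt1+/+ and 49.5% in Dnmt1-/-. All 46 had a higher value in Dnmt1-/- and 42 were called higher. The CpG at +442 moved furthest, from 8.70 to 77.8%, and the CpG at +500 least, from 7.35 to 14.7% at 136 calls in both libraries. Of the 45 CpGs in the rise around the start, 33 were in coding sequence, 6 in the UTR and 6 upstream.

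Cdo1 encodes cysteine dioxygenase, which opens the route from cysteine to taurine, and starts at chr18:46887996 on the minus strand. Its 42 CpGs averaged 9.39% in Dnmt1+/+ and 44.9% in Dnmt1-/-. All 42 had a higher value in Dnmt1-/- and 28 were called higher. The share called was lower than at Slc27a3, and the median depth was lower too, at 43.5 and 46 calls against 67 and 79. The CpG at -22 went from 19.1 to 90.4% with 115 and 146 calls, and the CpG at +476 from 12.9 to 15.4% with 31 and 13 calls.

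Nav1 encodes neuron navigator 1, a microtubule-associated protein, and has 2 gene models in the annotation. The rise lay at the downstream model, which starts at chr1:137481932 on the minus strand, and this model was taken for its rise. Its 16 CpGs averaged 7.86% in Dnmt1+/+ and 45.2% in Dnmt1-/-, with 10 called higher. Upstream of the start 12 CpGs went from 1.82 to 38.8%, and 4 CpGs between +509 and +538 went from 26.0 to 64.5%. The pair at -224 and -219 stayed low, at 0 and 3.70% each, although the next CpGs at -145 and -128 went from 2.86 to 52.4% and from 5.71 to 71.4%. At the start of the upstream model, at chr1:137584682, 44 CpGs averaged 1.98% in Dnmt1+/+ and 0.701% in Dnmt1-/-, so only 1 of the 2 annotated Nav1 starts had the rise.

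Tppp3 encodes a tubulin polymerisation-promoting protein and starts at chr8:107995322 on the minus strand. Only 5 informative CpGs were measured, from +57 to +174, and they averaged 5.57% in Dnmt1+/+ and 37.6% in Dnmt1-/-. The first 4 were close together in Dnmt1-/-, between 38.5 and 47.1%, and were called higher. The fifth, at +174, went from 3.85 to 12.9% with 26 and 31 calls and was not called. Over all 9 measured CpGs, the 4 in CCGG or TCGA included, the means were 27.0 and 47.5%, and the difference fell from 32.0 to 20.5 points. This promoter had the fewest CpGs and the fewest calls of the 10, at 226 and 237.

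Btbd6 encodes a BTB-domain adaptor of cullin ubiquitin ligases and starts at chr12:114214693 on the plus strand, inside Brf1 on the opposite strand. It was the least methylated of the 10 in Dnmt1+/+, where its 37 CpGs averaged 0.978% and 28 had no methylated call. In Dnmt1-/- they averaged 33.2% and 30 were called higher. No Dnmt1-/- value passed 59.3%. The CpG at +227 went from 0 to 58.8%, and the CpG at +66 had no methylated call in either library, at 27 and 38 calls.

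Ankrd13d encodes an ankyrin-repeat protein with ubiquitin-interacting motifs and starts at chr19:4283137 on the minus strand. Its 9 CpGs averaged 16.5% in Dnmt1+/+ and 44.7% in Dnmt1-/-, and all 9 were called higher. The level had a clear step in Dnmt1+/+ and a less clear one in Dnmt1-/-, where the ranges nearly met. Depth changed at the same place, from 62 and 82 calls to 59 and 90. The last 3 CpGs, from +319 to +341, were at 28.8 to 35.6% in Dnmt1+/+ and at 55.6 to 73.3% in Dnmt1-/-, above the first 6, which were at 4.84 to 11.3% and 18.3 to 54.9%.

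Fam196a, whose product is found at inhibitory synapses, starts at chr7:142130113 on the minus strand inside Dock1, which runs the other way. Its 43 CpGs averaged 3.28% in Dnmt1+/+ and 30.9% in Dnmt1-/-, and 32 were called higher. One edge of the rise was measured here. The 6 CpGs from +78 to +111 were at 0 to 11.1% in Dnmt1+/+ and at 0 to 15.4% in Dnmt1-/-, with 18 and 26 calls, and none was called. From +133, 22 bp further, the values went from 1.15 to 30.8%, and the CpG at +379 went from 2.44 to 78.9%.

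**Figure D3:**
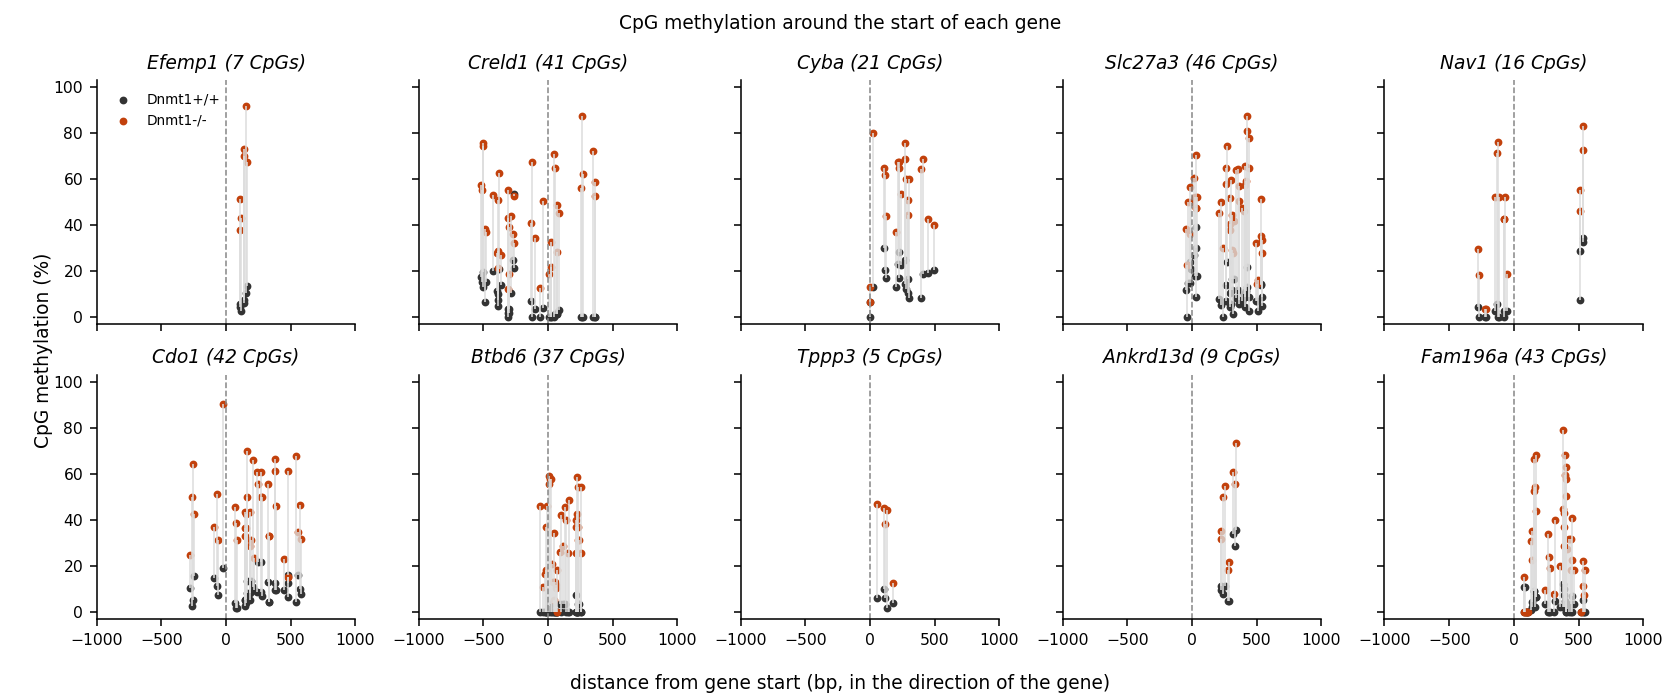
Methylation in percent (y axis) of each informative CpG against its distance from the gene's start in bp (x axis, in the direction of the gene), 1 panel per gene, with a line joining the Dnmt1+/+ and Dnmt1-/- values of a CpG. The CpGs of Efemp1, Tppp3, Ankrd13d and Fam196a all lie downstream of the start, and the Dnmt1-/- values of a promoter are spread widely, with a standard deviation of 14.1 points at Tppp3 and 24.8 at Nav1.

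The CpGs of a promoter differed in level. The standard deviation of the Dnmt1-/- values was 14.1 to 24.8 points, whereas counting error at these depths would give 5.05 to 8.80 points. In Dnmt1+/+ the standard deviation was 1.86 to 12.6 points, the highest being at Ankrd13d. Counting error was not worked out for that library, so whether its spread went beyond counting was not tested.

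To find how far each rise reached, a running mean of the difference over 5 CpGs was followed until it dropped under 10 points or the next CpG was over 1 kb away. The run at the start was 60 bp long at Efemp1, 117 bp at Ankrd13d, 118 bp at Tppp3, 415 bp at Fam196a, 496 bp at Cyba, 585 bp at Slc27a3, 819 bp at Nav1, 861 bp at Cdo1 and 883 bp at Creld1. At Btbd6 there were 2 runs, of 119 bp from -63 to +55 and of 991 bp from +64 to +1054. The last CpG of the second run stood apart at +1054 and itself went from 100 to 91.7%, and cutting at gaps over 500 bp shortened that run to 195 bp. The same cut took Nav1 from 819 to 230 bp, since no informative CpG lay between -51 and +509. Creld1 fell from 883 to 247 bp with a running mean over 3 CpGs and to 220 bp at a limit of 25 points, and Fam196a from 415 to 131 bp at that limit and to 160 bp with all CpGs. Ankrd13d went from 117 to 59 bp at that limit and to 198 bp with all CpGs. With 1 run per gene, taking for Btbd6 the one with more CpGs, the median was 540.5 bp, and it was 185 to 348 bp under 4 of the 7 other settings. The lengths therefore depend on the settings and on how densely CpGs were measured.

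A run crossed the start at 6 genes, Btbd6 with its first run among them, and began after it at the other 4. At Cyba the crossing came from the running mean alone, since the 1 CpG upstream, at -2, was at 6.67% in both libraries. Of the 244 CpGs in the 10 runs, without the first Btbd6 run, 96 lay in the UTR of the gene, 55 in coding sequence, 39 in introns and 54 upstream of the gene. The runs had 60.3 to 76.2% GC and an observed/expected CpG ratio of 0.643 to 0.977, and 0% of their bases were masked as repeats. Over the full 2 kb windows the ratio was 0.312 to 0.645 with a median of 0.566, where the median over all gene models was 0.468 and that over the models with at least 5 informative CpGs was 0.633. Between 15.6 and 65.8% of the CpGs in a window were measured.

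Most edges of the runs lay where no further informative CpG was measured nearby. The next informative CpG downstream was over 1 kb away at 8 of 10 genes, and at those 8 its value was lower in Dnmt1-/-. It was called lower at 5 of them and not at Btbd6 (14.3 and 11.1%), Tppp3 (95.3 and 91.3%) and Ankrd13d (53.8 and 15.4%, 13 calls each). At Creld1 and Slc27a3 the run stopped inside the rise. The CpG after it, at +366 and +543, went from 0 to 52.9% and from 8.82 to 33.8%, both called higher. The informative CpG after that, at +1227 and +1103, went from 100 to 33.3%, called lower, and from 50 to 40%, not called. The running mean had taken in these body CpGs. On the other side 8 genes had an informative CpG within their flank or gene, over 1 kb away at 6 of them, and it was lower in Dnmt1-/- at 5, all called. The informative CpG before the Cyba run, at -1005, went from 94.0 to 49.2% with 100 and 126 calls. The CpG before the Tppp3 run, at -1111, went from 90.0 to 48.1%, and the one before the Ankrd13d run, at -1236, from 100 to 8.33%. The gaps of 1003 to 1461 bp at these 3 genes held no informative CpG, though a few CpGs set aside lay in them. At Cyba the one at -982 went from 100 to 73.0% and was called lower, and the one at -97 was at 46.7 and 40% with 15 calls. At Tppp3 the one at -1085 was at 70 and 48.1% and the one at +47 at 36 and 40.4%, neither called. At Ankrd13d the one at -1217 was at 87.5 and 83.3% and the one at +219 at 56.5 and 65.9%, neither called.

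Outside the 1 kb windows the direction was the opposite. In the rest of the gene body 167 CpGs averaged 87.4% in Dnmt1+/+ and 44.8% in Dnmt1-/-, and the mean was lower in Dnmt1-/- at 10 of 10 genes. At Btbd6 this rested on 1 CpG with 1 unmethylated call of 12 in Dnmt1-/-, which was not called. In the upstream flanks of 10 kb 59 CpGs went from 93.0 to 48.7%, and in the downstream flanks 118 CpGs went from 44.7 to 22%. Each flank was lower at all 8 genes that had CpGs there, although the downstream flanks of Nav1 and Btbd6 differed by only -0.789 and -3.17 points. Of the 344 CpGs outside the windows 210 were called lower and 10 higher, where 43.7 and 0.462% of all measured CpGs were, those in CCGG or TCGA included.

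**Figure D4:**
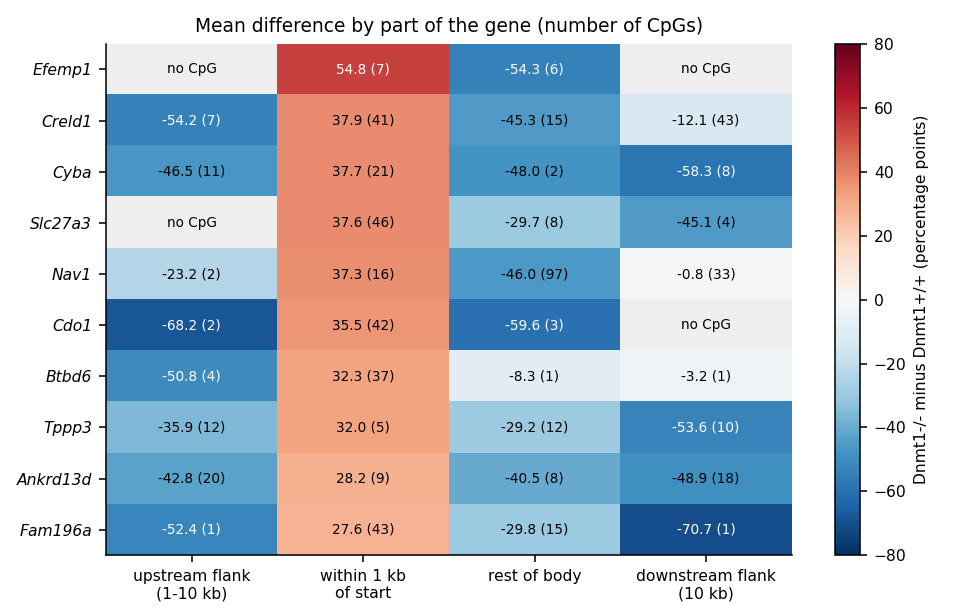
Mean difference in methylation, Dnmt1-/- minus Dnmt1+/+ in percentage points, for each gene (rows) in the upstream flank, within 1 kb of the start, in the rest of the body and in the downstream flank (columns), with the number of informative CpGs in brackets. The window at the start is positive in all 10 rows (27.6 to 54.8 points) and each other filled cell is negative.

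At Fam196a 15 body CpGs went from 98.7 to 68.8%, and at Cdo1 the 3 body CpGs went from 89.6 to 30%. At Efemp1 6 body CpGs went from 75.4 to 21.1%, at Creld1 15 went from 97.8 to 52.5%, and at Slc27a3 8 went from 83.4 to 53.7%. Where the Dnmt1+/+ level was 80% or more, the 230 CpGs outside the windows averaged 47.4% in Dnmt1-/-. The 377268 informative CpGs of the table with that Dnmt1+/+ level averaged 32.0%. The averages by gene ran from 29.2% at Efemp1 (4 CpGs) to 66.4% at Fam196a (16 CpGs), so Efemp1 was below the table's average.

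The 10 CpGs called higher outside the windows came from 2 places. In the Nav1 body, 8 CpGs from +74646 to +74920 (275 bp, chr1:137407012-137407286, intronic) averaged 11.4% in Dnmt1+/+ and 49.5% in Dnmt1-/-, with 335 and 288 calls, and all 8 were called higher. Their neighbours were methylated in Dnmt1+/+: the CpG 5258 bp before went from 85.7 to 56.5% and the CpG 8174 bp after from 90.0 to 15.8%. Across the whole Nav1 body, 97 CpGs went from 86.5 to 40.5% and 72 were called lower, the direction of the table as a whole (43.7% of all CpGs).

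**Figure D5:**
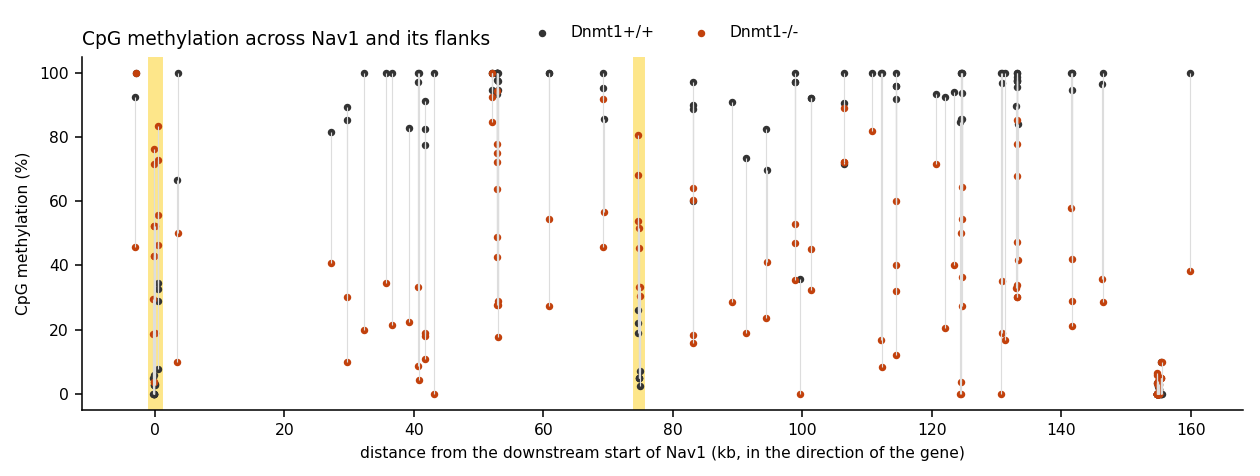
Methylation in percent (y axis) of informative CpGs across Nav1 and its flanks, by distance in kb from the downstream start (x axis), with shading on the window at the start and on the rise in the intron. Outside the shading most CpGs are lower in Dnmt1-/-, and the CpGs near 155 kb, at the promoter of Ipo9, are low in both libraries.

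The other place was in the downstream flank of Creld1, where 4 CpGs from +18588 to +18604 went from 26.7 to 54.7% and 2 were called higher. They lie at the start of Prrt3, whose promoter as a whole went from 25.8 to 34.8%. Other genes that start in the body or flanks moved differently. The promoter of Il17c, downstream of Cyba, went from 96.8 to 54.9%, and that of Ipo9, downstream of Nav1, was at 0.886 and 2.01%. The start of Ssh3, downstream of Ankrd13d, had 4 CpGs at 40.3 and 36.8%.

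Relatives of the 10 genes were looked up as a fixed list of 36: other fibulins, Creld2, NADPH oxidase subunits, fatty acid transport proteins, neuron navigators, enzymes of cysteine and taurine metabolism, and family members of Btbd6, Tppp3, Ankrd13d and Fam196a. Promoters of 22 had at least 5 informative CpGs. None was higher by 10 points, where 0.586% of all non-Hox promoters were, and 3 of 22 were lower by 10 points or more, where 14.6% of all were, so neither count is a result about the relatives. The other 19 were within 10 points, and the median difference over the 22 was -0.861 points. The largest rise was at the fibulin gene Fbln2, from 4.29 to 9.48%. Those lower were Noxa1, which encodes an activator of NADPH oxidase (from 63.9 to 3.95%), and the transsulfuration enzymes Cth (from 24.0 to 3.21%) and Cbs (from 19.7 to 7.10%).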

How the data were processed

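MEFs of both genotypes gave 1 library each by extended-coverage RRBS. A sequencing provider did quality control and mapping; Bismark and build mm9 are named in the submitters' processing notes, without a Bismark version. The deposited table gives, for each CpG and library, the percent of calls that were methylated and the depth as a count of calls, and the authors kept CpGs with at least 10 calls in both libraries. Whether overlapping mates were counted once is not given in the sources used here. At Efemp1 the CpG at +136 had 132 and 74 calls where its neighbours had 66 and 37, and at Fam196a the CpGs from +425 to +464 had 56 and 44 calls, with even methylated counts, where that at +421 had 28 and 22. Depths may thus hold some molecules in 2 calls, which would make intervals too narrow and calls too many. Percent times depth was whole (tolerance 0.001 calls) at 100% of CpGs and gave the methylated calls. Both strands of a CpG are merged.

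Genes came from GENCODE vM1 on NCBIM37, the same build. The 10 genes, the relatives and the tests were chosen with earlier results of these data known. Named genes were the 10 members, genes starting in their bodies or 10 kb flanks, the list of relatives, and the 3 other non-Hox genes with the largest rise. Outside this rule, Hsf4 was named for its rank, Il17rc because it overlaps the Creld1 rise, and Brf1 and Dock1 because they overlap members. All were named after values were seen. For Nav1, with 2 models, the model with the larger difference was used. Promoter values are means over informative CpGs within 1 kb of the start. Intervals are 95% Wilson intervals on pooled calls and cover counting error only; they are too narrow, since CpGs on the same reads were pooled as independent and PCR copies were not told apart by molecular identifiers. The per-CpG Fisher test (threshold 0.05) was tested on simulated data. A CpG without methylated calls at a depth of 10 allows up to 30% methylation (3 calls). Tests used scipy 1.17.1 and numba 0.67.0 under Python 3.11.15, tables numpy 2.4.6 with pandas 2.3.3, sequences pysam 0.24.0 and plots matplotlib 3.10.9.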

Additional observations from a re-analysis of the deposited data

How the results depend on the processing

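All 10 promoters stayed higher by 10 points or more under the 7 alternatives (all CpGs, depth of at least 20, the deepest CpGs left out, 500 bp windows, pooled calls, all transcript starts, and a limit of 25 points). No promoter difference reversed; 14 of 60 moved beyond their counting interval, which is too narrow where CpGs share reads, to between 20.5 and 45.7 points. Thinning each CpG to 10 calls gave 28 CpGs called higher in place of 232, at fewer calls by construction. Thinning to 50% of the calls, added after seeing the data because some depths may hold a molecule in 2 calls, gave 150. The median length of 540.5 bp became 348 bp with all CpGs, 316 bp with a running mean over 3 CpGs, 185 bp for a rise of 25 points and 322.5 bp with cuts at gaps over 500 bp. No paired analysis was possible because there was 1 library per genotype. Differences between these libraries cannot be told apart from differences between cultures.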
